A study of Homo sapiens with 6 samples.

Results

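Genes of mitosis and the spindle were followed in T47D cells carrying short hairpin RNA against CUEDC1. The 59 genes were taken by symbol from the deposited table of 17758 genes, and all 59 were found. They encode cyclins and other regulators of mitotic entry, FOXM1 and chromosome proteins, spindle assembly factors, the chromosomal passenger complex, the spindle checkpoint, the machinery of anaphase onset, kinesins, kinetochore proteins and proteins of cytokinesis. T47D is an oestrogen receptor-positive line from a human breast ductal carcinoma. It was given lentiviral hairpins and kept as stable lines, either with hairpin RNA directed at CUEDC1 (shCUEDC1, 3 libraries) or with a non-targeting hairpin (shNC, 3 libraries), so both groups carried a viral insert. The labels do not give the number of hairpins or whether a line was a clone, and an effect of a hairpin on other transcripts cannot be told apart from the loss of CUEDC1. The series calls the 3 libraries of a group biological replicates, but no label says that they came from separate infections or cultures, so p-values speak of the variation among these libraries, which may be technical.

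Cells that enter mitosis switch on a common set of genes late in the cycle. Cyclin B with CDK1 drives entry, the kinases AURKA, AURKB and PLK1 build and correct the spindle, and the checkpoint kinases TTK and BUB1 hold back the anaphase-promoting complex until every kinetochore is attached. CDC20 then activates that complex, securin (PTTG1) and cyclin B are destroyed, separase (ESPL1) cuts cohesin, and ANLN, ECT2 and RACGAP1 direct cytokinesis. In breast tumours the RNA of many of these genes is used as a measure of proliferation. Most are repressed in quiescent cells by the DREAM complex and activated by B-MYB and FOXM1, through a promoter element called the cell cycle genes homology region (CHR), which the MuvB protein LIN54 binds. The factor NF-Y binds a neighbouring element, the CCAAT box.

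Promoter sequences show what the genes share in their control regions. RefSeq windows on GRCh38.p14, from 250 bases before to 50 after a transcription start, were found for 50 of the 59 genes, with 62 windows in all. The CHR was searched for as TTTGAA or as TTCGAA, and the NF-Y element as CCAAT, each on both strands of the window; TTCGAA reads the same on both. No match of one motif lies inside a match of another. A CHR-type match was present in 39 of the 50 genes (78.0%), against 15.8% of the other genes tested with a window. A CCAAT match was present in 42 of the 50 (84.0%), against 42.9%. Both were present in 34 of the 50 (68.0%), against 6.46%. By window, a CHR-type match was found in 69.4% of the 62, against 12.1% of 16402 windows of the other tested genes and 16.4% of all 35116 windows.

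Stretches from 200 bases before to 30 after the start are shown for the genes that differed between the groups and had a window, and for CCNB2 and PLK1, which did not pass the test and have the CHR-type match close to the start. Capitals mark CHR-type and CCAAT matches on either strand.
TOP2A, chr17:40417867-40418096, minus strand: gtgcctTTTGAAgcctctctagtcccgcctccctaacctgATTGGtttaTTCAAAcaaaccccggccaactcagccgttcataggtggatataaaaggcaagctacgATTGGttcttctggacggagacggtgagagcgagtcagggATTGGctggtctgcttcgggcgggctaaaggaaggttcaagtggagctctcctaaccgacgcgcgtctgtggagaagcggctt
ESPL1, chr12:53268099-53268328, plus strand: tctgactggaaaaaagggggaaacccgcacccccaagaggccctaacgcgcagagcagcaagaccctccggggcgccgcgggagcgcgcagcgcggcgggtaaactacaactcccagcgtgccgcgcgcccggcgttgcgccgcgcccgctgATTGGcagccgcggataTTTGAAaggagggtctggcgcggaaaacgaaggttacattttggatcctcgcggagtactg
DLGAP5, chr14:55191556-55191785, minus strand: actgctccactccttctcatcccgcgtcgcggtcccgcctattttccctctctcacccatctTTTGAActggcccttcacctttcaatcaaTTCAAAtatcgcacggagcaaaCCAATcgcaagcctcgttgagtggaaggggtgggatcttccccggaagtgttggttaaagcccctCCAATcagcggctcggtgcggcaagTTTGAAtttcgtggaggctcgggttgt
NUSAP1, chr15:41332681-41332910, plus strand: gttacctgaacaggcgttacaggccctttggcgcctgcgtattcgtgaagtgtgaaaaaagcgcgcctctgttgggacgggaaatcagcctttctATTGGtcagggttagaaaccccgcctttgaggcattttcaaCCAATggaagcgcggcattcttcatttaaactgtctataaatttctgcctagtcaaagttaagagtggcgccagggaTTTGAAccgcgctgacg
AURKB, chr17:8210220-8210449, minus strand: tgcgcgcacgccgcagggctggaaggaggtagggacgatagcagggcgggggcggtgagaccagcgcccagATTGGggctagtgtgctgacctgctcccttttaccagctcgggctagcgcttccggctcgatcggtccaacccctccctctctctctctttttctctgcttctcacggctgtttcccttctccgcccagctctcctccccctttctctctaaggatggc
ANLN, chr7:36389662-36389891, plus strand: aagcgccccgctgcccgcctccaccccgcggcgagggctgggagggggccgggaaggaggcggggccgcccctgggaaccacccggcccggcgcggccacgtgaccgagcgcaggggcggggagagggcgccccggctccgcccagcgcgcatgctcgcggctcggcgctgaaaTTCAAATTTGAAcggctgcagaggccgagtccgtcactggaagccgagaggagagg
CCNB2, chr15:59104946-59105175, plus strand: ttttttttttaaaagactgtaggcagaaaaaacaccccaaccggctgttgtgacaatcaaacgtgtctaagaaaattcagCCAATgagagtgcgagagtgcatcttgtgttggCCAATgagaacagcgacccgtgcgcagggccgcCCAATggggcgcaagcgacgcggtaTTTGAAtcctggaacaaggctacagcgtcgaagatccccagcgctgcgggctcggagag
PLK1, chr16:23678689-23678918, plus strand: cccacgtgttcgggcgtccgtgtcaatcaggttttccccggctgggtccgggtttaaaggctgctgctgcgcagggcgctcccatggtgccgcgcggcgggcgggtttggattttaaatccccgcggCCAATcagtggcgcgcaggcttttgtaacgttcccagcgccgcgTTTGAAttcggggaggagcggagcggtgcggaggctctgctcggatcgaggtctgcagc

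In CCNB2 and PLK1 the CHR-type match began 29 bases before the start, and in ESPL1 31 bases before it, each with a CCAAT match upstream. ANLN had adjoining matches on opposite strands, at -26 and -20, and no CCAAT in the window. In TOP2A the CHR-type matches lay further away, at -194 and -151. DLGAP5 and NUSAP1 had one just inside the transcript, at 4 and 14, counting the start as 1. AURKB had 2 RefSeq starts, and neither window held a CHR-type match. In GENCODE 29 the gene begins further upstream, at 8210600, outside both windows. The sequence before that start was not searched, so a match there would have been missed. Windows of the 59 genes held a CHR-type match most often from 30 to 11 bases before the start, in 22.6% of windows, against 0.72% of windows of other tested genes. CCAAT was most frequent from 70 to 51 bases before the start, in 37.1% of windows, against 7.48%. The median log2 change was 0.09 over the 39 genes with TTTGAA or TTCGAA in a window and 0.11 over the 11 without, given as a description. Other forms of the CHR were not searched for.

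**Figure D1:**
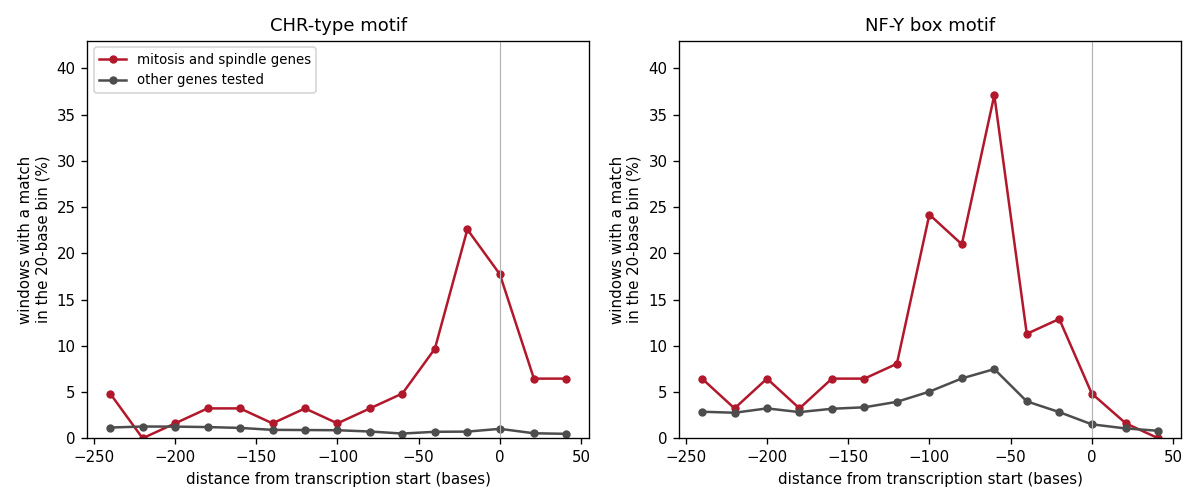
Share of promoter windows with a match beginning in each 20-base bin (vertical axis, percent) against distance from the transcription start (horizontal axis, bases), for 62 windows of the mitotic genes (red) and 16402 windows of the other genes tested (grey). The left panel shows the CHR-type motif, which reaches 22.6% just before the start, and the right panel the NF-Y box, which reaches 37.1% further upstream.

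The libraries held between 18924327 and 19731609 estimated reads. Levels below are CPM, the estimated reads of a gene scaled to a common library total after TMM normalisation. Log2 changes are shCUEDC1 over shNC, and their error is given as a standard error (SE) or as bounds at 95% confidence. A gene is called changed when its Benjamini-Hochberg adjusted p, over all 13824 genes tested with the edgeR quasi-likelihood test, lies below 0.05. CUEDC1, the target, had 31.4, 33.8 and 32.0 CPM in the shCUEDC1 libraries against 110, 109 and 93.3 CPM in the shNC libraries, a fall of 68.9% (edgeR adjusted p = 9.27e-06). An exact two-sided permutation test gave 0.1, the smallest p that 3 against 3 libraries allow. Library shNC 3 stood apart from its group. Across genes of at least 10 CPM, log2 differences between libraries had an SD of 0.253 and 0.273 between shNC 3 and the other shNC libraries, 0.110 between shNC 1 and shNC 2, and 0.128 to 0.142 among shCUEDC1 libraries. Results are therefore given with and without shNC 3. All 9 luminal markers of the line were expressed, with mean FPKM from 19.8 to 2073; edgeR, limma-voom and limma-trend called 0 of them changed, DESeq2 called 1, and 2 had an unadjusted p below 0.05 by edgeR, as did 25.2% of all genes tested. Without shNC 3, 3 of the 9 were called higher, ESR1 by 0.30, PGR by 0.22 and FOXA1 by 0.20 (edgeR adjusted p = 1.92e-06, 0.00137 and 3.93e-04). Of all genes, 14.3% were called higher and 13.8% lower in that fit. With all 6 libraries PGR was at -0.08. Of 12 stromal and immune markers, CD3E, PECAM1 and VWF did not pass the filter on low counts, and PTPRC lay at 0.409 to 0.726 CPM in shCUEDC1 and 0.472 to 0.962 CPM in shNC. The 9 tested summed to between 27.4 and 29.8 FPKM in shCUEDC1 and between 21.4 and 30.6 FPKM in shNC, and COL1A1 was called higher (0.61, edgeR adjusted p = 0.00843), though not without shCUEDC1 2 or 3 (0.0566 and 0.0599). DESeq2 called 2 of the 9. LUM had 7.65, 5.63 and 5.75 CPM in shCUEDC1 and 3.85, 2.97 and 0.944 CPM in shNC (1.29, edgeR adjusted p = 0.0744). Without shNC 3, edgeR called COL1A1 and LUM higher and ACTA2 lower (0.69, 0.90 and -0.43; adjusted p = 2.72e-04, 1.43e-04 and 5.50e-05). Their part in the results was not tested.

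All 59 mitotic genes passed the filter on low counts, with between 189.6 estimated reads (CDCA3) and 10209 (TOP2A) per library. Per length, their mean levels ranged from 4.65 FPKM for CENPE to 178 FPKM for UBE2C. The shift between the groups was small, and most of the genes moved in the same direction. Of the 59, 7 rose and 2 fell, which is 11.9% and 3.39%, where 5.19% of all genes tested were called higher, 4.77% lower and 9.96% either way. The log2 change was above 0 for 50 of the 59, against 49.1% of all genes, and the 7 that rose gained between 16.1% and 34.9%. All 3 shCUEDC1 libraries lay above all 3 shNC libraries for 25 of the 59 (42.4%, against 15.7% of all genes), and below them for 2 (against 15.6%). The median log2 change was 0.09 for the mitotic genes and -0.004 for all genes tested.

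A difference of this size also separated libraries of the same group. Relative to each gene's mean over the 6 libraries, the median of the 59 genes was 0.07, 0.04 and 0.02 on the log2 scale in shCUEDC1 1, 2 and 3, and -0.005, -0.07 and -0.07 in shNC 1, 2 and 3. The 2 groups did not overlap on this median, but shCUEDC1 3 and shNC 1 were close together. Between the shNC libraries themselves, shNC 1 was above shNC 2 for 48 of the 59 genes, by a median of 0.08. Among the shCUEDC1 libraries, shCUEDC1 1 was above shCUEDC1 3 for 47 genes and above shCUEDC1 2 for 44. The summed level was 2309, 2232 and 2234 FPKM in the shCUEDC1 libraries against 2196, 2106 and 2030 FPKM in the shNC libraries. In RNA from whole cultures, more cells in mitosis and more RNA of these genes per cell cannot be told apart.

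Leaving out shNC 3 moved the counts but not the median. Without it, 18 of the 59 were called higher and 3 lower, where 14.3% and 13.8% of all genes were called, and the median log2 change stayed at 0.09. With all 6 libraries those shares of all genes were 5.19% and 4.77%, so calls were gained over all genes too. Relative to the mean of shNC 1 and 2, shNC 3 was lower for 40 of the 59 genes, with a median of -0.05. It was lower for all 6 genes of anaphase onset and 7 of 8 genes of mitotic entry, and higher for 7 of 10 kinesins. Leaving out any other library left between 3 and 5 of the 59 called.

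**Figure D2:**
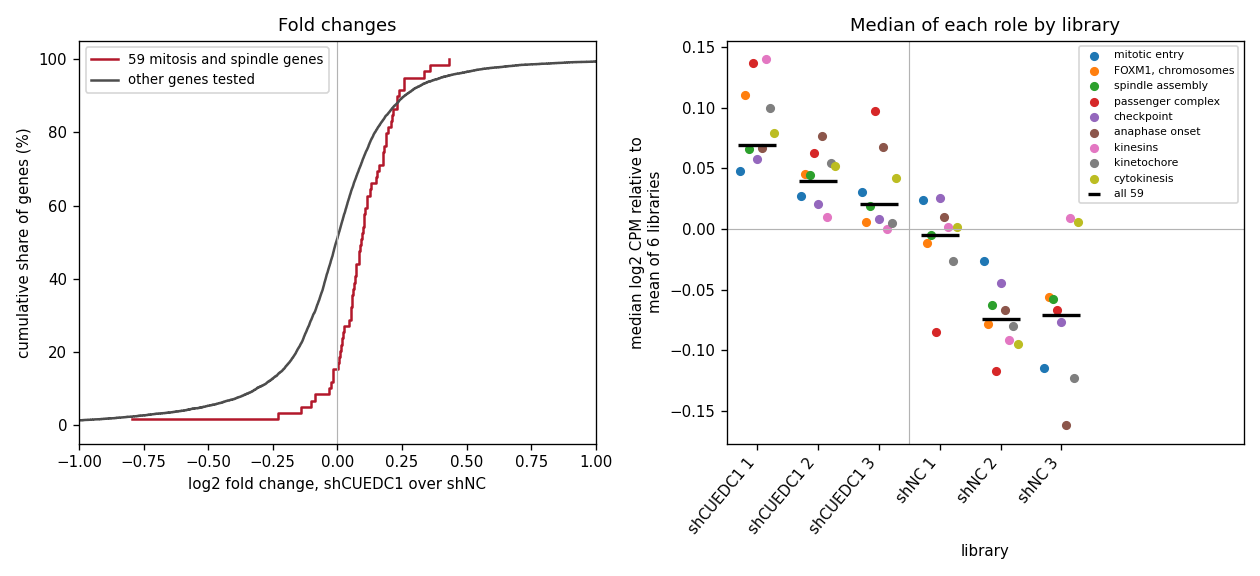
Left, cumulative share of genes (percent) against log2 fold change, shCUEDC1 over shNC, for the 59 mitotic genes (red) and the other genes tested (grey); the red curve lies to the right except at its upper end, and its lowest value, TTK, is at -0.79. Right, median log2 CPM relative to the mean of the 6 libraries for each role (coloured points) and for all 59 genes (black bars), by library; the black bars lie at 0.02 to 0.07 in shCUEDC1 and -0.07 to -0.005 in shNC.

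**Figure D3:**
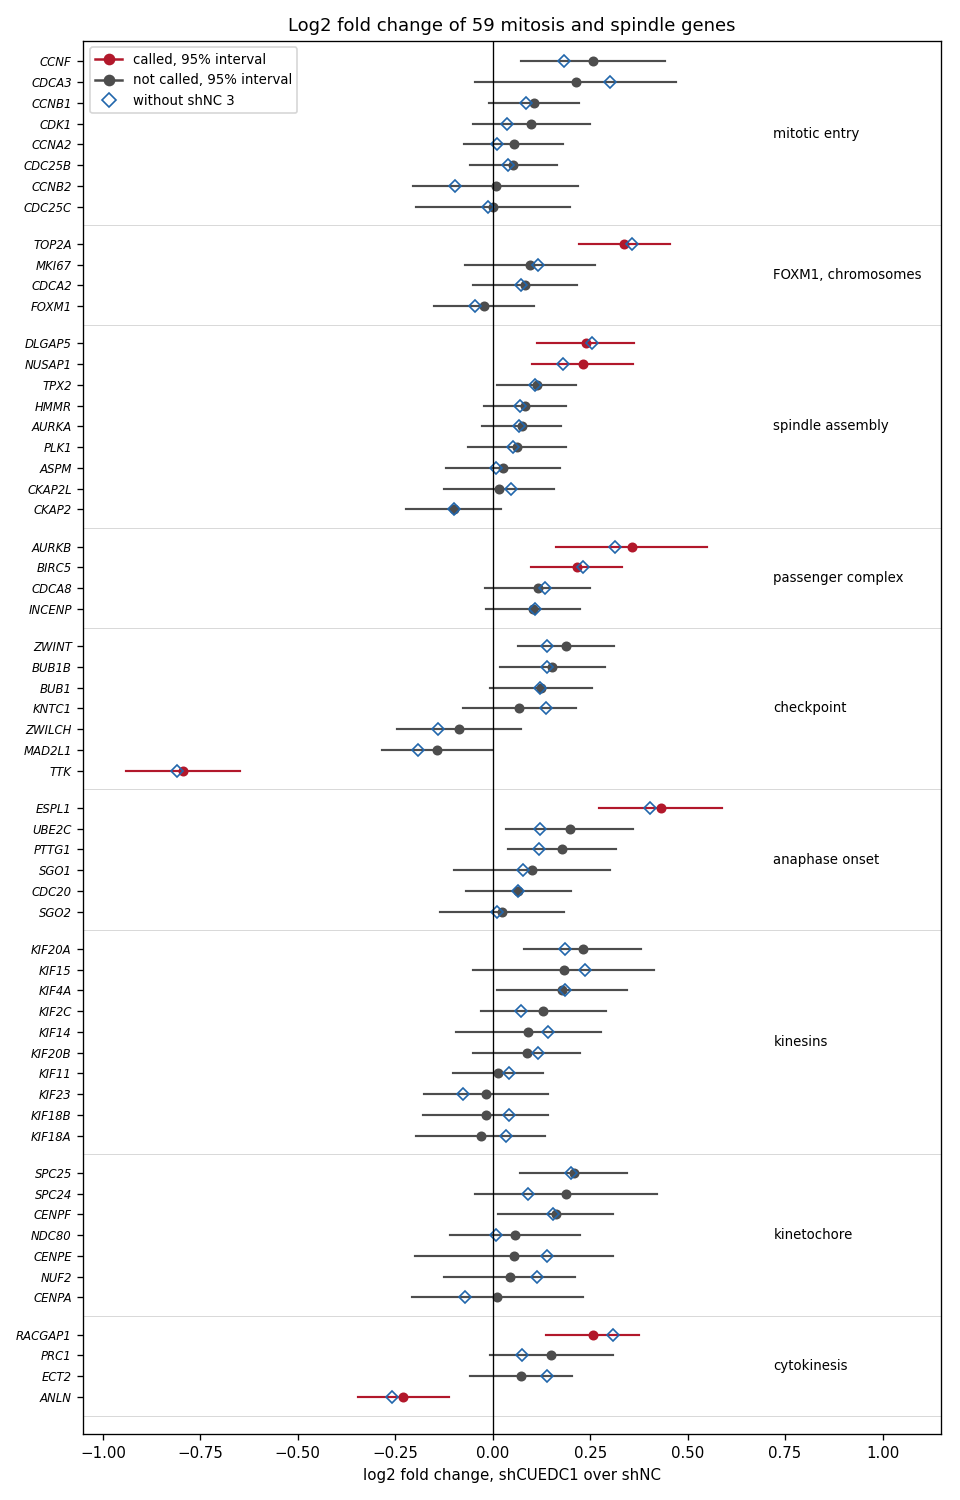
Log2 fold change, shCUEDC1 over shNC (horizontal axis), of each of the 59 genes by role, with 95% intervals from edgeR (red called, grey not called) and the value without shNC 3 (blue diamonds). TTK at -0.79 and ANLN at -0.23 are the called genes to the left of 0, and the 7 to the right lie between 0.22 and 0.43.

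TTK was the member with the greatest change. It encodes MPS1, the kinase that starts spindle checkpoint signalling at unattached kinetochores, and lies on chromosome 6 from 80003887 to 80042527 (GENCODE 29, GRCh38). Its level was 29.2, 28.5 and 28.3 CPM in shCUEDC1 1, 2 and 3, against 53.0, 47.9 and 48.3 CPM in shNC 1, 2 and 3. The groups were far apart, and shNC 3 lay between the other shNC libraries. TTK fell by 42.3% (-0.79 on the log2 scale, with bounds of -0.94 and -0.65 at 95% confidence; edgeR adjusted p = 1.47e-04), and TTK remained called with any 1 library left out, between -0.82 and -0.74.

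Of the other 6 checkpoint genes, edgeR called 0 with all libraries. ZWINT, a kinetochore protein that recruits the ZW10 complex, had 169, 169.6 and 165 CPM in shCUEDC1 and 153, 152 and 136 CPM in shNC. Its log2 difference was 0.19 (SE 0.0552, edgeR adjusted p = 0.0591), and without shNC 3 it was called at 0.14 (adjusted p = 0.00905). BUB1B, the checkpoint protein BUBR1, had 67.0, 68.9 and 67.9 CPM in shCUEDC1 and 65.6, 58.2 and 59.6 CPM in shNC, also without overlap (0.15, edgeR adjusted p = 0.149). The inhibitor of CDC20, MAD2L1, had 63.9, 61.4 and 61.3 CPM in shCUEDC1 and 72.6, 69.9 and 63.5 CPM in shNC, with shNC 3 inside the shCUEDC1 range. MAD2L1 was not called with all libraries (-0.14, edgeR adjusted p = 0.191) and was called lower without shNC 3 (-0.19, adjusted p = 0.00406). The kinase BUB1 differed by 0.12, and KNTC1 and ZWILCH, subunits of the complex that brings dynein to kinetochores, by 0.07 and -0.09. The groups did not overlap for BUB1. In the checkpoint role as a whole, edgeR called TTK alone of 7 genes, where 9.96% of all genes were called either way. By unadjusted edgeR p, 4 of the 7 lay below 0.05 (25.2% of all genes did), and DESeq2 called 2.

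Among the genes of anaphase onset, ESPL1, separase, the protease that cuts cohesin, rose most. ESPL1 lies on chromosome 12 from 53268299 to 53293643. It had 58.99, 54.1 and 52.0 CPM in the shCUEDC1 libraries against 43.4, 40.0 and 39.0 CPM in the shNC libraries. The lowest shCUEDC1 library was well above the highest shNC library, a rise of 34.9% (log2 change 0.43, 95% interval 0.27 to 0.59, edgeR adjusted p = 0.00498). The call held with any 1 library left out, with a highest edgeR adjusted p of 0.0364. UBE2C, the ubiquitin-conjugating enzyme of the anaphase-promoting complex, had 133, 137 and 146 CPM in shCUEDC1 and 128, 128 and 107 CPM in shNC. PTTG1, securin, which holds separase inactive, had 111, 107 and 108 CPM in shCUEDC1 and 101, 99.4 and 87.7 CPM in shNC. Both were higher in every shCUEDC1 library and low in shNC 3. PTTG1, like KIF4A and BUB1B, shares sequence with a copy or read-through gene, so its reads are uncertain. UBE2C differed by 0.20 (edgeR adjusted p = 0.125) and PTTG1 by 0.18 (0.104). Without shNC 3 both were called, at 0.12 each (edgeR adjusted p = 0.0400 and 0.0408). CDC20, the activator of that complex, and the shugoshins SGO1 and SGO2, which protect centromeric cohesion, differed by 0.07, 0.10 and 0.02 and overlapped between groups.

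TOP2A, topoisomerase II alpha, which untangles sister chromatids and is a marker of proliferating tumour cells, had the highest CPM of the 9 called genes. It lies on chromosome 17 from 40388516 to 40417950. Its level was 521, 472 and 468 CPM in shCUEDC1 and 385, 377 and 394 CPM in shNC. All shCUEDC1 libraries were higher, by 26.3% on average (log2 change 0.34, 95% interval 0.22 to 0.45, edgeR adjusted p = 0.00398), and TOP2A kept its call with any 1 library left out. The transcription factor FOXM1, which drives many of these genes, had 91.4, 92.6 and 84.7 CPM in shCUEDC1 and 95.4, 89.8 and 87.8 CPM in shNC. Its groups overlapped, with -0.02 on the log2 scale (bounds -0.15 and 0.11 at 95% confidence; edgeR adjusted p = 0.851). The proliferation antigen MKI67, which coats mitotic chromosomes, had 135, 116 and 113 CPM in shCUEDC1 and 119, 106 and 116 CPM in shNC, again with overlap (0.10, edgeR adjusted p = 0.474). CDCA2, a phosphatase-targeting subunit of mitotic chromatin, differed by 0.08.

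**Figure D4:**
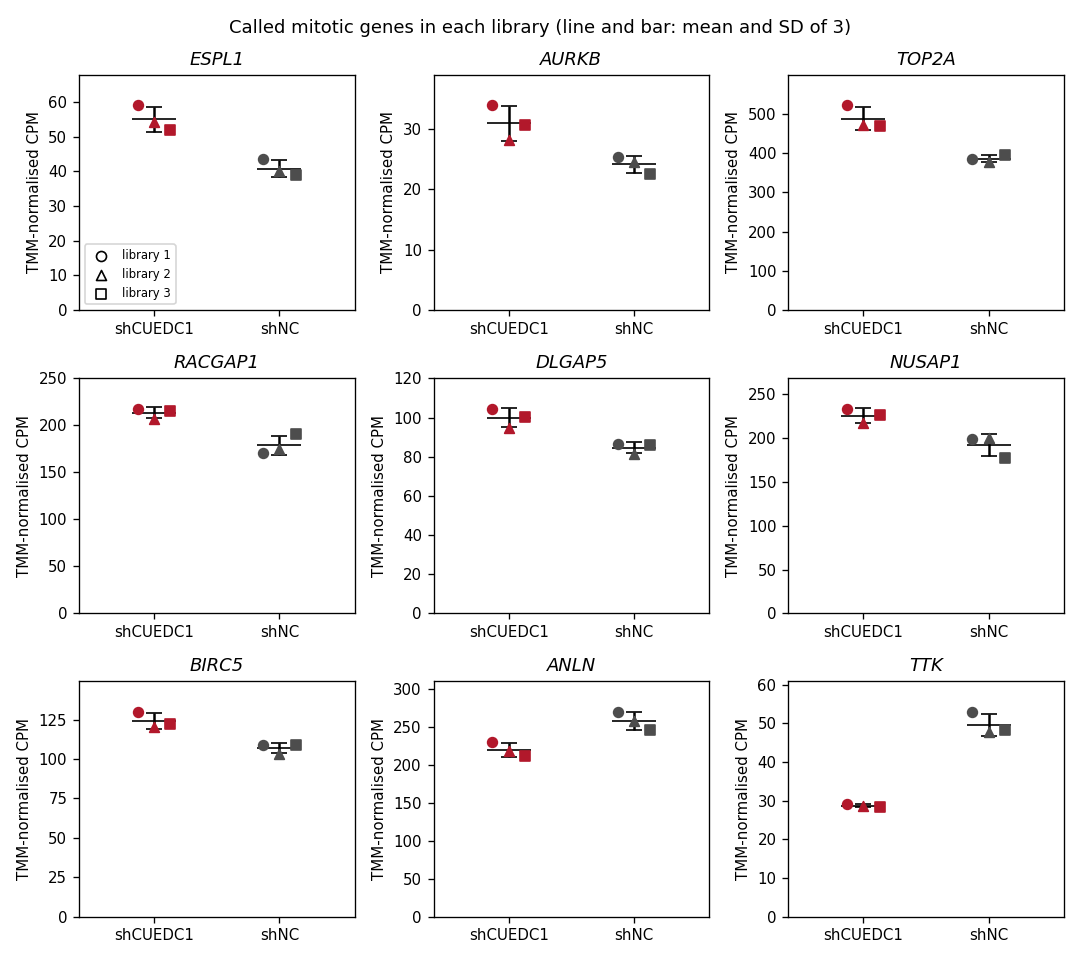
TMM-normalised CPM (vertical axis, from 0) of the 9 called genes in each shCUEDC1 library (red) and shNC library (grey), with the mean and SD of 3 as a line and bar; symbols mark the library number. The 7 genes from ESPL1 to BIRC5 are higher in every shCUEDC1 library, and ANLN and TTK are lower in every one.

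The chromosomal passenger complex had its 4 genes separated between the groups, each higher in every shCUEDC1 library, as were 15.7% of all genes. AURKB, its kinase, which corrects faulty kinetochore attachments, lies on chromosome 17 from 8204733 to 8210600. AURKB had 33.9, 28.2 and 30.7 CPM in shCUEDC1 against 25.4, 24.5 and 22.6 CPM in shNC, and rose by 28.05% (log2 change 0.36, SE 0.0864, edgeR adjusted p = 0.0294). BIRC5, survivin, which docks the complex on centromeres, lies on chromosome 17 from 78214186 to 78225636. BIRC5 had 130.0, 120.1 and 122 CPM in shCUEDC1 against 109, 103 and 109 CPM in shNC, and rose by 16.1% (0.22, SE 0.0520, edgeR adjusted p = 0.0290). The scaffold INCENP and the targeting subunit CDCA8 (borealin) differed by 0.10 and 0.12 and were not called (edgeR adjusted p = 0.265 and 0.272). The median log2 change of the 4 genes was 0.17, the highest of the 9 roles.

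Spindle assembly factors included 2 rises among 9 genes, where 5.19% of all genes were called higher. NUSAP1, which bundles microtubules near chromosomes, lies on chromosome 15 from 41332694 to 41381050. It had 233, 217 and 226 CPM in shCUEDC1 and 199, 200.1 and 177 CPM in shNC (log2 change 0.23, SE 0.0578, edgeR adjusted p = 0.0331). DLGAP5, also called HURP, which stabilises kinetochore fibres, lies on chromosome 14 from 55148112 to 55191678. It had 105, 94.8 and 100.3 CPM in shCUEDC1 and 86.3, 81.6 and 86.1 CPM in shNC (0.24, SE 0.0554, edgeR adjusted p = 0.0251). Both were higher in each shCUEDC1 library, as were 15.7% of all genes. For NUSAP1 shNC 3 was the lowest library, but for DLGAP5 it was not. The kinase AURKA had 181, 176 and 175 CPM in shCUEDC1 and 174, 166 and 166 CPM in shNC. Its groups were separate by a narrow margin, with a log2 difference of 0.07 (edgeR adjusted p = 0.352). TPX2, the activator of AURKA, differed by 0.11 (edgeR adjusted p = 0.155) and was called without shNC 3 (0.11, edgeR adjusted p = 0.0419). The kinase PLK1, the hyaluronan receptor HMMR, the spindle pole protein ASPM and the microtubule-associated CKAP2L and CKAP2 differed by 0.06, 0.08, 0.03, 0.02 and -0.10.

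In cytokinesis, RACGAP1 and ANLN changed in opposite directions. RACGAP1, a subunit of centralspindlin, the complex of the spindle midzone, lies on chromosome 12 from 49976923 to 50033136. It had 218, 207 and 215 CPM in shCUEDC1 against 171, 174 and 190.2 CPM in shNC and rose by 19.5% (log2 change 0.26, 95% interval 0.14 to 0.38, edgeR adjusted p = 0.0155). ANLN, anillin, which links actin and septins in the contractile ring, lies on chromosome 7 from 36389806 to 36453791. It had 230.4, 219 and 212 CPM in shCUEDC1 against 270.3, 258 and 246 CPM in shNC and fell by 14.7% (-0.23, 95% interval -0.35 to -0.11, edgeR adjusted p = 0.0237). Both genes were separate between the groups, where 15.7% of all genes were higher in every shCUEDC1 library and 15.6% lower. Exons of ANLN overlap those of KIAA0895 on the opposite strand, and strand use in counting is not given. KIAA0895 differed by 0.24 (edgeR adjusted p = 0.0527), and its part in the ANLN counts was not tested. ECT2, which binds RACGAP1 and is needed for cytokinesis, was even among shCUEDC1 libraries, at 376, 375 and 373 CPM, and spread among shNC libraries, at 354, 328 and 386 CPM. ECT2 was not called with all libraries (0.07, edgeR adjusted p = 0.488) and was called higher without shNC 3 (0.14, adjusted p = 0.00755). PRC1, which bundles midzone microtubules, differed by 0.15 (edgeR adjusted p = 0.220).

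Of the 9 calls, those of TTK, ESPL1 and TOP2A held whichever library was left out. The other 6 were each lost in some of these fits. Over all genes, 717 were called higher and 660 lower with all 6 libraries. Leaving out a library other than shNC 3 lowered both counts, to at most 553 and 460 (without shNC 2). AURKB was not called without shCUEDC1 1 or 3 or shNC 1 or 2 (edgeR adjusted p = 0.135, 0.108, 0.0633 and 0.0581). NUSAP1 was not called without shCUEDC1 1, 2 or 3 or shNC 1 (0.153, 0.0866, 0.126 and 0.0703), nor RACGAP1 without the same 4 (0.0876, 0.0592, 0.0822 and 0.0717). With 1 library left out, BIRC5, DLGAP5 and ANLN were called when that library was shNC 3 and otherwise not. Without shCUEDC1 1, 2 or 3 or shNC 1 or 2, the edgeR adjusted p was 0.143, 0.0859, 0.0965, 0.0788 and 0.0884 for BIRC5. It was 0.128, 0.0568, 0.104, 0.0705 and 0.0742 for DLGAP5, and 0.0552, 0.121, 0.118, 0.101 and 0.0561 for ANLN. The log2 change of each of these 6 genes kept its sign in all of them.

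Of the 8 genes of mitotic entry, edgeR called 0 with all libraries, and their mean levels ran from 6.26 FPKM for CDC25C to 169 FPKM for CDK1. CDK1, the kinase that drives entry, had 342, 313 and 309 CPM in shCUEDC1 and 321, 307 and 272 CPM in shNC. Its partner cyclin B1, CCNB1, had 219, 222 and 230.4 CPM in shCUEDC1 and 221, 202 and 201 CPM in shNC. The groups of both overlapped, with log2 differences of 0.10 (edgeR adjusted p = 0.406) and 0.11 (0.238). CCNF, cyclin F, the substrate receptor of a ubiquitin ligase, had 46.2, 45.3 and 41.8 CPM in shCUEDC1 and 40.3, 38.1 and 33.1 CPM in shNC. CCNF was the only gene of this role whose groups did not overlap (0.26, edgeR adjusted p = 0.0803), and it was called without shNC 3 (0.18, adjusted p = 0.0244). CDCA3, a trigger of mitotic entry, had 12.3, 11.1 and 13.4 CPM in shCUEDC1 and 10.4, 9.58 and 11.9 CPM in shNC, with overlap. CDCA3 was not called with all libraries (0.21, edgeR adjusted p = 0.291) and was called without shNC 3 (0.30, adjusted p = 0.0346). CCNA2, CCNB2, CDC25B and CDC25C, a pair of cyclins and the phosphatases that activate CDK1, differed by 0.05, 0.01, 0.05 and 0.00086. The 95% interval of CCNB2 ran from -0.20 to 0.22. Over the 8 genes, edgeR, DESeq2, limma-voom and limma-trend each called 0, where edgeR called 9.96% of all genes either way. By edgeR, 1 had an unadjusted p below 0.05, against 25.2% of all genes.

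The mitotic kinesins, motors that move chromosomes and slide spindle microtubules, were not called by edgeR with all libraries. KIF11, which pushes spindle poles apart, had 152, 148 and 147 CPM in shCUEDC1 and 151, 138 and 152 CPM in shNC, with overlap and a log2 difference of 0.01 (95% interval -0.10 to 0.13). KIF23, the partner of RACGAP1 in centralspindlin, had 96.4, 87.1 and 88.5 CPM in shCUEDC1 and 98.7, 93.0 and 83.5 CPM in shNC. KIF23 thus differed by -0.02 (95% interval -0.18 to 0.14), where RACGAP1 rose; the difference between the 2 genes was not tested. KIF20A, a kinesin of the midzone, had 90.8, 80.4 and 83.7 CPM in shCUEDC1 and 76.1, 73.7 and 67.3 CPM in shNC. It was separate between the groups (0.23, edgeR adjusted p = 0.0577), and was called without shNC 3 (0.19, adjusted p = 0.00693). KIF4A, a chromosome-bound kinesin, had 42.2, 38.1 and 35.5 CPM in shCUEDC1 and 33.6, 34.4 and 34.4 CPM in shNC, with shCUEDC1 1 the highest. KIF4A was not called with all libraries (0.18, edgeR adjusted p = 0.170) and was called without shNC 3 (0.19, edgeR adjusted p = 0.0411). The other 6, KIF2C, KIF14, KIF15, KIF18A, KIF18B and KIF20B, differed by 0.13, 0.09, 0.18, -0.03, -0.02 and 0.09. Of the 10 kinesins, edgeR and limma-voom called 0 and DESeq2 called 1, where edgeR called 9.96% of all genes either way. By edgeR, 2 had an unadjusted p below 0.05, against 25.2% of all genes.

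Of the 7 kinetochore genes, SPC25 and SPC24 were higher in every shCUEDC1 library, as were 15.7% of all genes, and edgeR called 0. SPC25, a subunit of the NDC80 complex that grips microtubules, had 33.7, 35.0 and 35.6 CPM in shCUEDC1 and 30.02, 30.6 and 29.7 CPM in shNC, and shNC 3 lay next to the other shNC libraries. SPC25 was separate between the groups (0.21, edgeR adjusted p = 0.0625), and was called without shNC 3 (0.20, adjusted p = 0.0203). NUF2, of the same complex, had 40.4, 45.3 and 42.0 CPM in shCUEDC1 and 39.3, 39.5 and 45.0 CPM in shNC, with overlap (0.04, edgeR adjusted p = 0.771). The remaining subunits NDC80 and SPC24 differed by 0.06 and 0.19. The centromeric histone CENPA, the farnesylated CENPF and the motor CENPE differed by 0.01, 0.16 and 0.05. Of the 7 genes, edgeR, DESeq2 and limma-voom called 0 and limma-trend on FPKM called 1. With edgeR, 9.96% of all genes were called either way. By edgeR, 2 had an unadjusted p below 0.05, against 25.2% of all genes. By edgeR with the same filter, 12 of the 59 were called without shNC 3 and not with all 6 libraries. Over all genes, the fit without shNC 3 called 14.3% higher and 13.8% lower, against 5.19% and 4.77% with all 6. KNTC1 and TPX2 were among the 12, KNTC1 with a log2 difference of 0.14 (edgeR adjusted p = 0.0435).

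**Figure D5:**
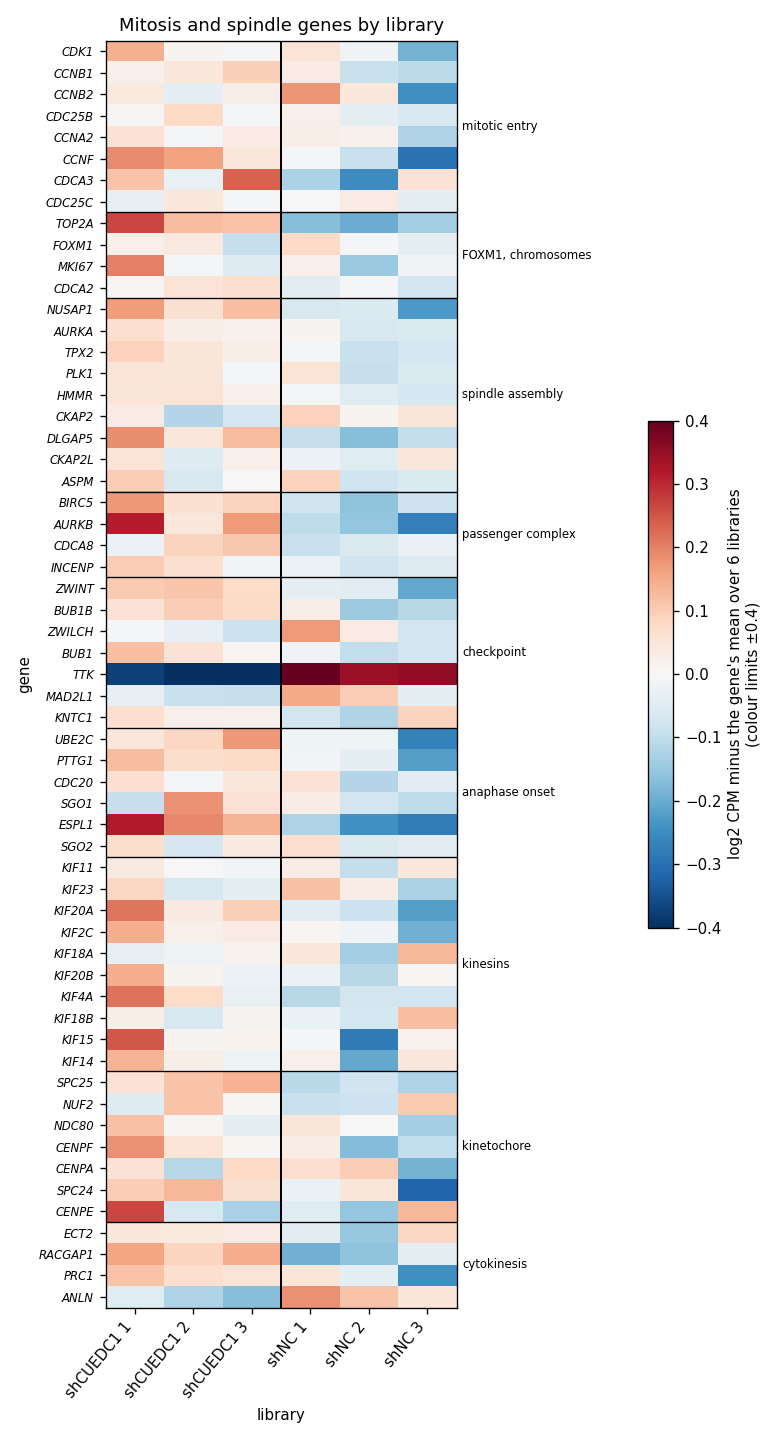
Log2 CPM of each of the 59 genes (rows, by role) in each library (columns, shCUEDC1 left of the line) minus the gene's mean over the 6 libraries; red is higher, blue is lower, and colours are capped at 0.4. Most rows are red in shCUEDC1 1 and blue in shNC 2 or shNC 3, and TTK runs the opposite way in all 6 libraries.

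Further lists of mitotic and cell cycle genes, with 17, 18, 29, 27, 19, 12 and 34 genes tested, had 7 called genes in all, each higher. Of all genes, 5.19% were called higher and 9.96% either way. Of 17 subunits of the anaphase-promoting complex, edgeR, DESeq2, limma-voom and limma-trend each called 0, and 3 had an unadjusted p below 0.05 by edgeR, against 25.2% of all genes, with a median log2 change of 0.04. Without shNC 3, 3 of the 17 were called higher and 1 lower, the subunit ANAPC10 (-0.48, edgeR adjusted p = 1.69e-04), where 14.3% and 13.8% of all genes were called. Of 18 condensin and cohesin genes, the same tools each called 0 and 6 had an unadjusted p below 0.05 by edgeR (median 0.07). Without shNC 3, 6 of the 18 were called higher and 0 lower. Among 29 genes of the inner centromere and kinetochore, edgeR called 1, CENPK, higher by 0.23 (edgeR adjusted p = 0.0346, median of the list 0.05). Among 27 other mitotic and centrosome genes it called 1, DEPDC1B, higher by 0.32 (0.0393, median 0.02). Among 19 DREAM, RB and E2F regulators it called 1, the repressor E2F7, higher by 0.33 (edgeR adjusted p = 0.0168, median 0.01). With all libraries, DESeq2 called 0 of the 29, 1 of the 27 and 1 of the 19. By limma-voom 1 of each list was called, and by limma-trend 1, 0 and 0. Without shNC 3, edgeR called 4 of the 29, 3 of the 27 and 2 of the 19 higher, and 0 of each lower.

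The brakes on mitotic entry WEE1, which phosphorylates CDK1, and CHEK1, the checkpoint kinase that acts on CDC25, both rose, by 0.33 and 0.32 (edgeR adjusted p = 0.00791 and 0.00599), among 12 genes tested with CDK inhibitors (median 0.08). The inhibitor CDKN1A, p21, differed by -0.31 (edgeR adjusted p = 0.0897) and was called lower without shNC 3, at -0.43. In that fit 3 of the 12 were called higher, where 14.3% of all genes were called higher and 13.8% lower. Of 34 G1 and S phase genes, the helicase subunits MCM6 and MCM2 rose by 0.48 and 0.22 (edgeR adjusted p = 0.00159 and 0.0318). With all 6 libraries, 5.19% of all genes were called higher. Without shNC 3 edgeR called 6 of the 34 higher and 5 lower, against 14.3% and 13.8% of all genes. The median of that list, 0.05, became -0.003 when shNC 3 was left out, and shNC 3 was below the mean of the other shNC libraries for 25 of the 34. Of the called genes of these lists, MCM6 and CHEK1 kept the call with any 1 library left out, and WEE1 lost it without shCUEDC1 3 (edgeR adjusted p = 0.0515). With 1 library left out, CENPK, DEPDC1B, E2F7 and MCM2 were called when that library was shNC 3 and otherwise not. Without shCUEDC1 1, 2 or 3 or shNC 1 or 2, the edgeR adjusted p lay between 0.0885 and 0.137 for CENPK and between 0.0548 and 0.173 for DEPDC1B. It lay between 0.0517 and 0.0800 for E2F7 and between 0.0704 and 0.162 for MCM2.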

How the data were processed

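Messenger RNA of 6 libraries was enriched with oligo(dT) and copied from random hexamers, per the labels' protocols. The submitters' processing notes name GRCh38, patch p13, and no source used here names the aligner, the counter or whether it read strand. The authors' 1 table lists 17758 genes. It holds deposited estimated counts, which are fractional, and deposited FPKM and TPM values, both scaled for length and library. It also holds a deposited signal column, from the values counts over a size factor, which was not used, nor were the authors' group means.

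The estimated counts, rounded, were filtered with filterByExpr (minimum count 10), scaled by TMM and fitted in edgeR 4.0.16 (robust quasi-likelihood test, R 4.3.3). Benjamini-Hochberg adjustment covered all 13824 genes tested. The fit was tested on simulated data. Depth, between 18924327 and 19731609 estimated reads, limits the precision of genes with few reads. The 59 genes, their roles and the further lists were chosen with earlier results of these data known. Values in every library are given for CUEDC1, the called genes, the 10 of smallest p among those called only without shNC 3, and the 2 of highest FPKM in each role. MKI67, CDKN1A, ANAPC10, LUM, ACTA2, ESR1, PGR and FOXA1 were added after their values were seen. Alternatives were RLE size factors, other filters on low counts, DESeq2 1.42.0, limma-voom and limma-trend (limma 3.58.1; log2(FPKM + 0.5) or log2(FPKM + 0.1)), a block by replicate number, and leaving out single libraries. Promoters are RefSeq's (GRCh38.p14), and gene positions GENCODE 29's (GRCh38).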

Additional observations from a re-analysis of the deposited data

How the results depend on the processing

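The number of changed genes varied with the library left out. Over all genes tested it was 1377 with all 6 and ranged from 468 (without shCUEDC1 2) to 3925 (without shNC 3) when 1 library was left out. Of the mitotic genes, 9 were called with all 6, and between 3 and 21 with 1 left out. Their median log2 change was 0.09 and ranged from 0.079 to 0.11 over those fits, and CUEDC1 kept its fall and its call in every alternative run.

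Same-numbered libraries did not deviate together (correlations of -0.001, 0.061 and 0.025), and not every library correlated best with its own number. With the replicate number as a block, 1117 genes were called, 8 of them mitotic; the call lost was that of NUSAP1 (edgeR adjusted p = 0.0512). NUSAP1, BIRC5 and AURKB were not called by limma-trend on log2(FPKM + 0.5), at limma-trend adjusted p of 0.0599, 0.0539 and 0.0593.

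Genes near 0 changed sign. On log2(FPKM + 0.5) and log2(FPKM + 0.1) these were CDC25C (-0.033 and -0.035), CKAP2L (-0.016 and -0.017), ASPM (-0.013 and -0.014) and KIF11 (-0.0023 and -0.0024), and CDC25C was at -0.00046 with at least 1 CPM in 3 libraries. With 1 library left out, the log2 change ranged from -0.098 to 0.11 for CCNB2, -0.018 to 0.018 for CDC25C, -0.046 to 0.017 for FOXM1, -0.0069 to 0.048 for CKAP2L, -0.017 to 0.081 for ASPM, -0.0052 to 0.064 for SGO2, -0.028 to 0.043 for KIF11, -0.077 to 0.039 for KIF23, -0.10 to 0.033 for KIF18A, -0.056 to 0.043 for KIF18B, -0.0015 to 0.11 for NUF2, -0.070 to 0.071 for CENPA and -0.076 to 0.14 for CENPE. The cause was not tested. At this depth the SE of the log2 change ran from 0.0453 (TPX2) to 0.116 (CDCA3). With all libraries, the smallest change called among the mitotic genes was 0.22 (BIRC5). CCNF, at 0.26, was not called (edgeR adjusted p = 0.0803), so changes of this size or smaller may have been missed.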

Other observations

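The neighbours of the called genes were looked at after the values of those genes were seen. The 6 tested genes within 1 Mb of TTK, PHIP, HMGN3, LCA5, SH3BGRL2, ELOVL4 and BCKDHB, had log2 changes between -0.28 and 0.17, with a median of -0.09, against -0.79 for TTK, and the lowest edgeR adjusted p among them was 0.186 (HMGN3). Around ESPL1, the 41 tested genes within 1 Mb had a median of -0.009 and included 3 called higher and 3 called lower, where 5.19% and 4.77% of all genes were called. The 29 around TOP2A had a median of 0.09, with 5 called higher and 1 lower.

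Exons of 11 of the 59 genes overlap those of a tested gene on the opposite strand in GENCODE 29, and whether the counting used strand is not given. ANLN, which overlaps KIAA0895, is the called gene among them. BUB1B shares exons with the read-through BUB1B-PAK6, which held between 24.6 and 39.0 estimated reads per library. KIF4A and PTTG1 have near-identical copies, and how reads were divided is not stated; KIF4B held 1.25 to 4.37 and PTTG2 0 to 2.09 estimated reads. The values of BUB1B, KIF4A and PTTG1 are uncertain for that reason.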
